A study of Drosophila melanogaster with 6 samples.

Results

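Polycomb group proteins keep developmental genes silent in the fruit fly Drosophila melanogaster. Polycomb repressive complex 2 methylates histone H3 through its enzyme E(z), which works with the subunits esc and Su(z)12. Polycomb repressive complex 1 holds Pc, which binds that methyl mark, the ubiquitin ligase Sce, its RING-finger partner Psc or the related Su(z)2, and the polyhomeotic proteins ph-p and ph-d. The zinc-finger protein pho binds Polycomb response elements in DNA, from which both complexes act. In the fly nervous system these proteins are known for keeping Hox genes and other identity genes confined to the right neurons and progenitors.

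Of these 10 genes, 6 were measured, each by 1 probe set that the platform annotation gives to that gene alone: Pc, Psc, Sce, E(z), esc and Su(z)12. The array held 13966 probe sets other than controls, for 10844 named genes. No probe set is named here with ph-p, ph-d, Su(z)2 or pho, so these 4 genes were not analysed here. The group was chosen on results of these data already known, in which Psc was among the genes with the lowest intensity in cultured embryonic cells relative to fluorescent larval cells. That comparison is therefore described below without a test.

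RNA was measured on 6 one-colour expression arrays. All groups carried the same reporter, the red fluorescent protein dsRed1 under 2.1 kb of the promoter of Gad1, which encodes the enzyme that makes the transmitter GABA, and cells were separated by fluorescence. EC_pos denotes the fluorescent cells of embryonic cell cultures (4 arrays, a to d), LB_pos the fluorescent cells of larval brain and ventral nerve cord (1 array), and LB_neg the cells of that tissue that did not fluoresce (1 array). Ages are not labelled, and nothing tells whether the 4 cultured samples were grown separately, so a p-value here reflects array-to-array spread that may be technical. Culture and tissue differ together with embryonic and larval stage, and their effects cannot be told apart.

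EC_pos array a stood apart from b, c and d. Its log2 intensities correlated with theirs at r of 0.588 to 0.707 across 9635 probe sets, against 0.908 to 0.944 among b, c and d. Its control ratios of 3' to 5' signal for 3 transcripts were 148 to 866, and the highest ratio on any other array was 120. These ratios were 42.4 to 72.5 on array b, 15.3 to 23.6 on c and d, 19.5 to 120 on LB_neg and 8.9 to 58.3 on LB_pos. Signal was thus far stronger at the 3' end on all 6 arrays, and leaving out array a does not remove this. Gad1 itself was dim, with 31.5 ± 7.94 in EC_pos (SD, n = 4), while LB_neg had 22.0 and LB_pos 54.8, all below the median of all intensities, and it was not tested. Median intensities were 181.5 to 229.4 over the 6 arrays. Precision is limited by how few arrays there are, and values are given below with and without array a.

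Within Polycomb repressive complex 1, Psc covered the widest range. Psc helps Sce to modify histone H2A and compacts nucleosomes, and its probe set is 143558_at. Its intensity was 187.8, 124.9, 79.8 and 354.2 on the EC_pos arrays, in the order a to d, while LB_neg gave 714.1 and LB_pos 2106.4. Both larval arrays thus lay above every EC_pos array, and LB_pos lay above LB_neg. The mean was 187 ± 120 in EC_pos (SD, n = 4), so LB_neg was 3.83 times and LB_pos 11.3 times that mean. In such pooled cells, fewer cells that use a gene and less RNA per cell cannot be told apart.

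Sce, the ubiquitin ligase of the complex (154217_at), varied less. It was at 220.4, 342.9, 249.5 and 193.6 on EC_pos arrays a to d, 364.3 on LB_neg and 495.8 on LB_pos. The order of the groups was that of Psc, but array b lay close to LB_neg. Pc, the chromodomain protein that recognises methylated histone H3 (143294_at), was dim throughout. It was at 61.4, 37.6, 67.4 and 98.3 on EC_pos arrays a to d, 39.5 on LB_neg and 75.6 on LB_pos. Both larval values lay within the EC_pos range, and Pc stayed below 197.35, the median of all intensities, on all 6 arrays, so it was not tested.

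In Polycomb repressive complex 2, the methyltransferase E(z) (154532_at) was at 845.6, 1146.2, 707.4 and 1124.7 on EC_pos arrays a to d, 2488.1 on LB_neg and 3413.4 on LB_pos. All 4 EC_pos arrays lay well below both larval arrays, and LB_neg was 2.60 times the EC_pos mean of 956 ± 215. The WD-repeat subunit esc (141561_at), which stimulates the enzyme, was at 181.4, 333.5, 164.4 and 350.8, with 691.9 on LB_neg and 371.3 on LB_pos. For esc the LB_neg array alone was clearly brighter, and LB_pos lay just above EC_pos array d.

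The zinc-finger subunit Su(z)12 (141612_at), which the complex needs to bind nucleosomes, was at 1086.7, 549.2, 476.7 and 240.2 on EC_pos arrays a to d. It was at 1221.4 on LB_neg and 562.8 on LB_pos. LB_neg was above all EC_pos arrays, whereas LB_pos lay below array a, just above array b, above c and far above d. Array a exceeded the mean of b, c and d by 1.33 log2 units for Su(z)12, the largest such departure among the 6 genes, and by -0.47 to 0.18 for the other 5.

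**Figure D1:**
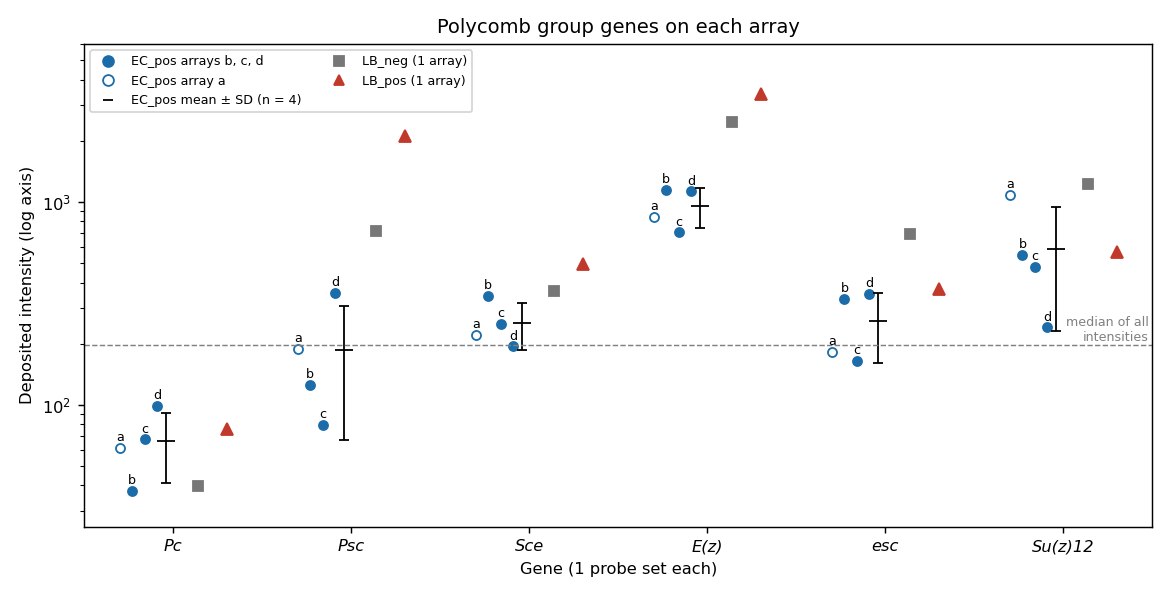
Deposited intensity on a log axis for the 6 measured Polycomb group genes, with each EC_pos array lettered, the EC_pos mean ± SD (n = 4, black), LB_neg (grey square) and LB_pos (red triangle). Psc, Sce, E(z), esc and Su(z)12 were brighter on LB_neg than on every EC_pos array, and Pc lay below the median of all intensities (197.35, dashed).

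The spread among the EC_pos arrays differed between the genes. On the scale of log2(intensity + 53.6), where 53.6 is the 25th percentile of all intensities, the SD was 0.29 for Sce, 0.32 for E(z), 0.47 for esc, 0.69 for Psc and 0.80 for Su(z)12. The median SD over all 9635 tested probe sets was 0.56. Without array a the SD of Su(z)12 was 0.55 and that of Psc 0.84, against a median of 0.33 over all tested probe sets. All 5 tested genes were above that median among b, c and d, Sce and E(z) narrowly at 0.34 and 0.37 and esc at 0.50.

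EC_pos was then compared with LB_neg. Psc had not been singled out on that comparison, but it uses the same EC_pos arrays and is no independent support. All 5 tested genes were dimmer in EC_pos, but none passed limma's test with all 4 EC_pos arrays, and E(z) alone passed without array a. A probe set was tested if it exceeded the median of all intensities on at least 1 array, and each of the 5 genes did so on at least 1 EC_pos array as well as on both larval ones. The log2 difference of EC_pos minus LB_neg was -1.80 ± 0.67 for Psc (SE, limma adjusted p = 0.243) and -1.36 ± 0.52 for E(z) (adjusted p = 0.248). It was -1.32 ± 0.56 for esc (adjusted p = 0.296), -1.16 ± 0.74 for Su(z)12 (adjusted p = 0.493) and -0.48 ± 0.49 for Sce (adjusted p = 0.698). Psc and E(z) had an unadjusted p under 0.05, as did 1673 of all 9635 tested probe sets. Over all tested probe sets 0.0727% were called lower and 0.467% higher in EC_pos, and the median difference was -0.11.

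Without array a the same differences were -1.31 ± 0.38 for E(z) (SE, n = 3 against 1, limma adjusted p = 0.0379), -1.49 ± 0.47 for Su(z)12 (adjusted p = 0.0554) and -1.85 ± 0.61 for Psc (adjusted p = 0.0603). They were -1.20 ± 0.47 for esc (adjusted p = 0.105) and -0.43 ± 0.43 for Sce (adjusted p = 0.516). E(z) was thus the 1 gene of 5 called, where 10.6% of all tested probe sets were called lower and 12.6% higher. Without array b, c or d, 0 of the 5 genes and 0 of all 9635 probe sets were called, and 1203, 1149 and 1216 probe sets had an unadjusted p under 0.05. The larval arrays were assumed to vary like EC_pos in these fits. The 5 genes had a median difference of -1.32 with all arrays and -1.31 without array a, against -0.11 and -0.14 over all tested probe sets.

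Every EC_pos array lay below LB_neg for 5 of the 5 tested genes, as it did for 30.0% of all tested probe sets. For arrays b, c and d alone the share of all probe sets was 41.9%. After quantile normalization and scaling to a common median, all 5 genes again lay below LB_neg, where 30.0% and 32.7% of probe sets did. Pc, which was not tested, showed no such order.

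**Figure D2:**
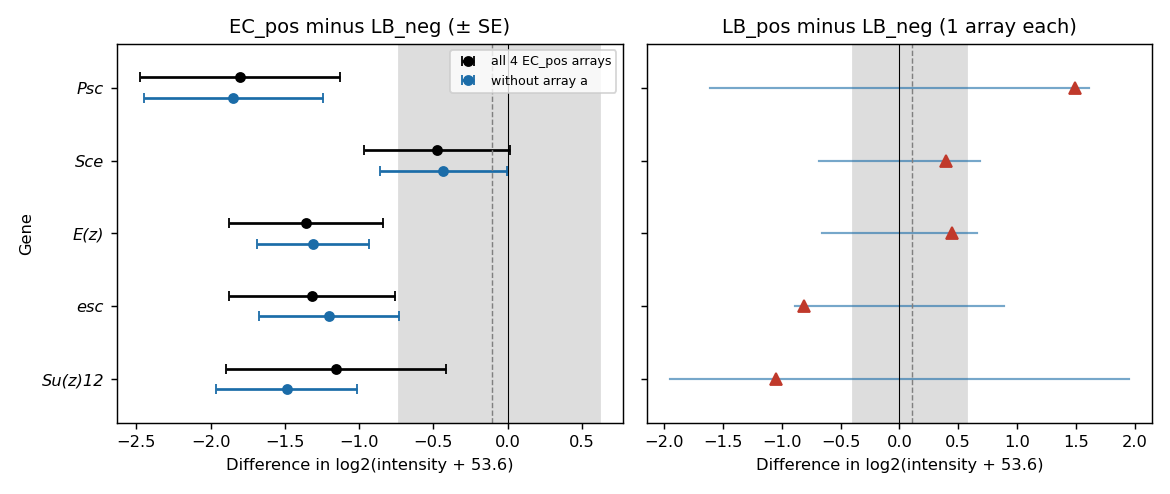
Differences in log2(intensity + 53.6) for the 5 tested genes. Left, EC_pos minus LB_neg ± SE with all 4 EC_pos arrays (black) and without array a (blue). Right, LB_pos minus LB_neg (triangles) over a blue line that spans plus and minus the largest gap between any pair of EC_pos arrays. Grey bands hold the middle 50% of all tested probe sets and dashed lines their median. All 5 genes lie left of 0 at left, and at right Psc, Sce and E(z) lie above 0 and esc and Su(z)12 below.

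EC_pos and LB_pos were set side by side as a description, since Psc had drawn attention in this comparison. The log2 difference of EC_pos minus LB_pos was -3.30 for Psc, -1.81 for E(z), -0.87 for Sce, -0.51 for esc and -0.11 for Su(z)12. Only 0.145% of tested probe sets lay lower than Psc, and 3.01% lay lower than E(z). Every EC_pos array lay below LB_pos for Psc, Sce, E(z) and esc, 4 of 5 genes, where 34.7% of all tested probe sets did so. Without array a this held for all 5, against 46.5%. After quantile normalization or scaling to a common median it held for 3, Psc, Sce and E(z), where 31.4% and 26.0% of all tested probe sets did so. For esc, at least 1 EC_pos array then lay above LB_pos. The EC_pos arrays are shared with the comparison above. Psc's place in these counts follows from its having been singled out here, so nothing is read from the counts.

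The fluorescent and non-fluorescent larval cells were compared to see how the Polycomb genes differ across the reporter sort. Members of one complex did not all lie in the same direction. Psc, Sce and E(z) were brighter on LB_pos, and esc and Su(z)12, the partners of E(z), were brighter on LB_neg. LB_pos minus LB_neg was 1.49 log2 units for Psc, 0.45 for E(z) and 0.40 for Sce, and -0.81 for esc and -1.05 for Su(z)12. In raw intensity, Psc on LB_pos was 2.95 times LB_neg, and Su(z)12 on LB_neg was 2.17 times LB_pos. Each larval group was 1 array, so these differences have no replicate check. Psc had been singled out by its EC_pos values relative to this same LB_pos array, so its larval difference is no separate result.

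Psc, whose LB_pos value had entered the choice of the group, was higher by 1 log2 unit or more, and Su(z)12 was that much lower. This was 1 gene of 5 in each direction, where 11.8% of all tested probe sets were that much higher and 7.38% that much lower. That balance turned with the scaling, to 8.47% higher and 9.68% lower after quantile normalization and 7.19% higher and 14.2% lower at a common median. All tested probe sets had a median of 0.11. Of the 6 pairs of EC_pos arrays, 1 was as far apart as the larval arrays for Psc, namely c and d with a gap of 1.61. For Sce, E(z), esc and Su(z)12, 2 pairs each were at least as far apart. For each of the 5 genes the larval difference was thus smaller than the widest gap between replicates, but for Su(z)12 this rested on array a, since the widest gap among b, c and d was 1.037 and the larval difference -1.049. Scaling the arrays to a common median, which moved the median of all probe sets to -0.18, left E(z) at 0.12 and Sce at 0.09, while Psc was at 1.17, esc at -1.11 and Su(z)12 at -1.36.

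Further Polycomb genes were examined against LB_neg. A list of 18 further Polycomb group and accessory genes had 15 tested members, of which 0 were called with all arrays (2 at an unadjusted p under 0.05). Of all 9635 tested probe sets, 1673 had an unadjusted p under 0.05 with all arrays. Without array a limma called 3 lower and 0 higher in EC_pos, with a median difference of -0.97, where 10.6% of all tested probe sets were called lower. Those 3 were Caf1-55, a histone-binding subunit of complex 2, Pcl, which assists E(z), and Sfmbt, the partner of pho. Caf1-55 was at 1260.1, 1678.7, 1300.3 and 1063.9 on EC_pos arrays a to d, 6411.9 on LB_neg and 2748.7 on LB_pos (difference from LB_neg -2.23 without array a, limma adjusted p = 0.00324). Its LB_neg value was above all others, and LB_pos lay between LB_neg and EC_pos, as for esc.

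Pcl was at 330.2, 635.6, 510.3 and 628.6 in EC_pos, 1608.8 on LB_neg and 1559.5 on LB_pos, so its larval arrays were close to each other. Sfmbt was at 1884.9 on array a, 386.7 to 579.9 on the other 3, with LB_neg at 1324.0 and LB_pos at 671.6, and array a exceeded LB_neg. jing, a relative of a mammalian cofactor of complex 2, was at 43.7 to 380.0 in EC_pos, 528.2 on LB_neg and 469.2 on LB_pos (limma adjusted p = 0.266 without array a). Across the larval pair 2 of the 15 were lower by at least 1 unit on LB_pos and 0 were higher. The 2 were Caf1-55 (-1.21) and RYBP (-1.12), a partner of Sce in variant forms of complex 1. Of all tested probe sets 7.38% were that much lower and 11.8% that much higher. The larval median of this list was -0.46, where that of all tested probe sets was 0.11.

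The trithorax group, whose proteins keep the same developmental genes active and oppose Polycomb repression, was examined next. Of 17 tested genes out of 21 listed, 0 were called with all arrays (6 at an unadjusted p under 0.05), and 10 were called lower and 0 higher without array a, with a median of -1.29. Over all named genes tested, 862 of 7892 were called lower without array a, and 1434 had an unadjusted p under 0.05 with all arrays. The 10 were brm, mor, osa, Snr1 and Bap60, which belong to the Brahma chromatin remodelling complex, and trx, kis, Utx, tna and Kdm5. brm, the ATPase of that complex, was at 578.9 to 735.8 on the 4 EC_pos arrays, 3028.8 on LB_neg and 1525.4 on LB_pos (-2.11 without array a, limma adjusted p = 0.00352). Every EC_pos array lay below both larval arrays for brm. Of all tested probe sets 30.0% had every EC_pos array below LB_neg and 34.7% below LB_pos. Since brm was named for its large difference from LB_neg, that part of the order largely follows from the choice. Its probe set (142840_s_at) is of a type whose probes can be shared by several transcripts.

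Utx, the demethylase that removes the mark E(z) places, was at 1150.6 on array a, 136.0 to 206.8 on the other 3, with LB_neg at 1706.0 and LB_pos at 391.8 (-2.94 without array a, limma adjusted p = 0.00185). It was bright on LB_neg and on array a. Kdm5, a demethylase of another histone H3 lysine, was at 269.3 to 763.9 in EC_pos, 2170.8 on LB_neg and 930.5 on LB_pos (-1.57, limma adjusted p = 0.0149 without array a). tna, which is related to SUMO ligases, was at 116.9 on array a, 2702.1 to 3309.6 on the other 3, with LB_neg at 6749.9 and LB_pos at 13262.5 (-1.16, limma adjusted p = 0.0223 without array a). Across the larval pair 4 trithorax genes were lower by at least 1 unit on LB_pos and 1 was higher. Of all tested probe sets 7.38% were that much lower and 11.8% higher. At a common median these shares were 14.2% and 7.19%, but the trithorax genes were not counted again there, so the counts above do not compare with them. The higher trithorax gene was skd, a Mediator subunit, at 53.5 on LB_neg and 405.3 on LB_pos, with 47.8 to 467.6 in EC_pos.

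Among proteins that bind Polycomb response elements, 5 of 7 listed genes were tested. With all arrays 0 were called, and 2 had an unadjusted p under 0.05, as did 1673 of all 9635 tested probe sets. Without array a 2 were called lower in EC_pos, where 10.6% of all tested probe sets were. lolal, a BTB-domain protein, was at 208.7 to 680.9 in EC_pos, 1528.4 on LB_neg and 1467.3 on LB_pos (-1.60, limma adjusted p = 0.0366 without array a). Spps, of the Sp1 family, was at 242.0 to 416.1, 1085.9 and 473.5 (-1.53, limma adjusted p = 0.0292 without array a). Both were brighter on the larval arrays than on every EC_pos array. Every EC_pos array lay below LB_neg for 30.0% of all tested probe sets and below LB_pos for 34.7%. Since both genes had been called lower than LB_neg, that part of the order largely follows from the call. Trl, the GAGA factor, was at 6208.2 on array a and 336.4 to 489.2 on b, c and d, while LB_neg gave 394.4 and LB_pos 259.8.

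**Figure D3:**
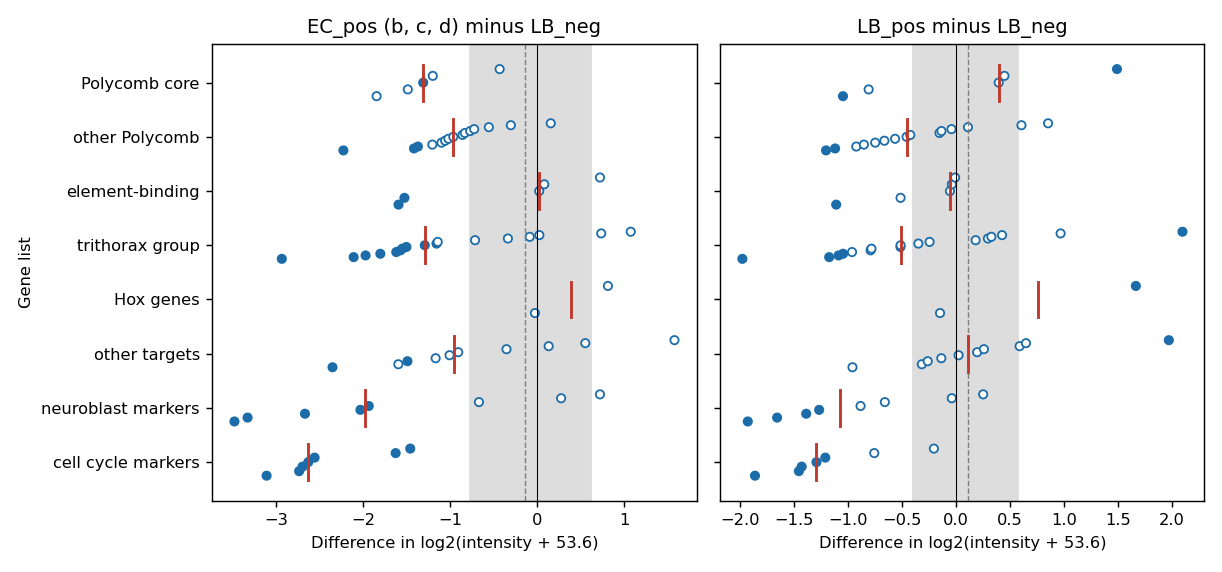
Each point is a tested gene, as a difference in log2(intensity + 53.6), for the Polycomb core genes, 5 related lists and markers of neuroblasts and cell division. Left, EC_pos arrays b, c and d minus LB_neg, filled where limma's adjusted p was under 0.05. Right, LB_pos minus LB_neg, filled where at least 1 log2 unit apart. Red bars mark list medians, grey bands the middle 50% of all tested probe sets and dashed lines their median. At left the core and trithorax medians lie at -1.31 and -1.29, and at right the core genes lie on both sides of 0.

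Genes that Polycomb proteins are known to repress were few among the tested probe sets. Of 8 Hox genes 2 were tested, and 0 were called with or without array a (0 at an unadjusted p under 0.05 in either). Antp was at 180.3 to 694.6 in EC_pos, 295.9 on LB_neg and 261.6 on LB_pos, so its larval values lay inside the EC_pos range. Dfd was at 104.5 to 371.7 in EC_pos, with LB_neg at 63.8 and LB_pos at 319.3, a larval difference of 1.67. The LB_neg value of Dfd lay near the offset of 53.6, and its larval difference ranged from 0.98 to 2.32 under other settings. For Antp that difference was -0.15.

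Of 13 other developmental genes under Polycomb control 10 were tested, with 0 called using all arrays (2 at an unadjusted p under 0.05) and 2 lower without array a, toy and ey, which are Pax6 relatives of eye development. The share called lower without array a was 10.6% of all tested probe sets. With all arrays, 1673 of all 9635 had an unadjusted p under 0.05. toy was at 456.5 to 880.8 in EC_pos, 3325.8 on LB_neg and 1682.1 on LB_pos (-2.35 without array a, limma adjusted p = 0.00445). The homeodomain gene cad was dim on LB_neg at 18.9, with 231.1 on LB_pos and 105.8 to 567.0 in EC_pos. The BTB-domain gene bab2 was at 46.1 to 270.7 in EC_pos, 540.0 on LB_neg and 441.0 on LB_pos, and the homeodomain gene en was at 160.4 to 340.8, 133.4 and 239.4. LB_neg was thus the brightest array for toy and bab2 and the dimmest for cad and en.

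The profile of Psc over the 6 arrays was compared with those of 8582 other tested probe sets with 1 gene, by the root mean square difference of mean-centred log2 values. The most similar was Sox14, an ecdysone-induced transcription factor, at a distance of 0.42 log2 units, where the median distance was 1.40. Sox14 was at 595.5, 605.7, 475.7 and 899.1 in EC_pos, 1386.4 on LB_neg and 4125.8 on LB_pos, and like Psc it was brightest on array d within EC_pos. The next 4 were CG42361 (0.53), Ance, a relative of angiotensin-converting enzyme (0.54), CG17803 (0.56) and CG9389 (0.56). Since likeness was measured on these same arrays, the order these genes share with Psc follows from the choice. E(z) ranked 23rd at 0.67, and esc, Sce and Su(z)12 lay at 1.10, 1.14 and 1.46. Su(z)12 was thus farther from Psc than the median probe set.

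**Figure D4:**
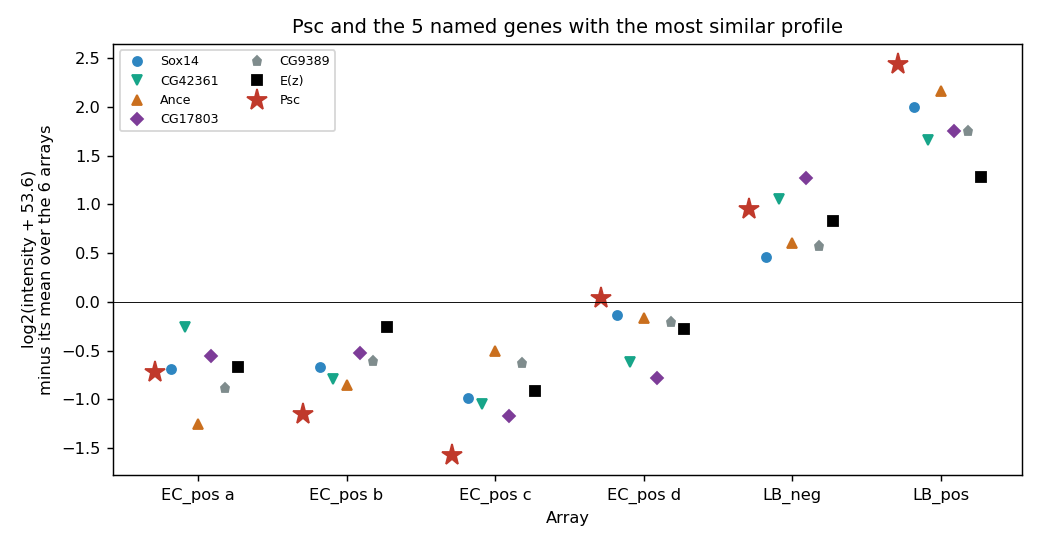
Mean-centred log2(intensity + 53.6) on each of the 6 arrays for Psc (red stars), the 5 named genes with the most similar profile (coloured points) and E(z) (black squares). LB_pos is the highest array for all 7 genes and LB_neg the next. The 5 named genes were picked for likeness to Psc on these same arrays, so their shared order is no separate result.

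Marker lists of dividing and progenitor cells had higher summed intensity on both larval arrays than on any EC_pos array, as Psc, Sce, E(z) and esc did, but not Pc or, on LB_pos, Su(z)12. On LB_pos this failed for esc after quantile normalization or scaling to a common median, and Psc had been singled out there. Every EC_pos array lay below LB_neg for 30.0% of all tested probe sets and below LB_pos for 34.7%. For 7 of 12 listed cell cycle markers with a probe set, the summed intensity was 2302 to 3202 in EC_pos, 12029 on LB_neg and 6129 on LB_pos. For 8 of 8 neuroblast and progenitor markers it was 1733 to 2540, 12366 and 5402. Without array a limma called 7 of 7 and 5 of 8 of them lower in EC_pos, where 10.6% of all tested probe sets were called lower. Also on the progenitor list, dpn was not called (-0.67), and insc and grh had differences of 0.28 and 0.72. Both sums were highest on LB_neg, and esc, Su(z)12 and Caf1-55 were brightest there, whereas Psc, Sce and E(z) were brightest on LB_pos. Not every progenitor marker followed its sum, since LB_pos minus LB_neg was 0.25 for dpn and -0.04 for grh. At a common median that difference was only 0.09 for Sce and 0.12 for E(z). The progenitor marker pros was at 234.5 to 496.9 in EC_pos, 3841.6 on LB_neg and 2054.3 on LB_pos, and the mitotic kinase aurB at 6.3 to 104.9, 822.3 and 265.2.

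Sums for 6 of 8 neuron markers were 2009 to 7231 in EC_pos, 9636 on LB_neg and 9983 on LB_pos, and elav, which marks neurons, was at 59.8 to 664.7, 4939.9 and 1541. elav was the 1 neuron marker of 5 tested that limma called lower in EC_pos without array a, where 10.6% of all tested probe sets were. For nrv3 the difference was 0.63. Across the larval pair the neuron markers differed, with LB_pos minus LB_neg at -1.65 for elav, -0.51 for fne, 1.19 for nSyb, 1.27 for futsch and 1.44 for nrv3. Epidermis markers (6 of 6) summed to 5148 to 64542 in EC_pos, 1111 on LB_neg and 2090 on LB_pos, and fat body markers (3 of 4) to 3784 to 4438, 617 and 723. Hemocyte markers (8 of 8) summed to 3649 to 8752, 3150 and 1960, muscle markers (4 of 8) to 617 to 2787, 402 and 452, and glia markers (7 of 8) to 3338 to 4576, 6490 and 3226. Some of these sums hide opposite members. The muscle marker sls had a difference from LB_neg of -1.54 without array a, while Tm2, up and bt were at 3.34, 3.52 and 1.84. Among hemocyte markers, Hml and Pxn were called lower and PPO2 and vkg higher in EC_pos without array a. Of all tested probe sets 10.6% were called lower and 12.6% higher. With all arrays, the fat body markers differed from LB_neg through apolpp (3.94, against -0.14 for Lsp2 and 0.40 for Fbp1). For glia, gcm gave 3914.1 of the 6490 on LB_neg. No marker probe set was at 0 on any array. The part of these cell types and of the arrays' control ratios in the Polycomb differences was not tested.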

How the data were processed

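The values deposited by the authors are linear intensities, 1 for each probe set on each array. Neither their software nor a genome build is named in the labels or headers (not given in the sources used here). The trimmed mean (lowest and highest 2% left out) was 500.063 to 500.083 on every array, so no further scaling was applied. Control probe sets (44) did not enter any test. Genes were named from the platform annotation, updated through RefSeq gene IDs (used for names only): 12443 probe sets had 1 gene, 327 several and 1196 none. No coordinates or sequences are given.

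Values were log2(intensity + 53.6). Probe sets above 197.35 on at least 1 array were tested (9635) with limma 3.58.1 in R 4.3.3, as 3 group means, eBayes with trend and Benjamini-Hochberg adjustment over all of them, with calls at 0.05. The residual degrees of freedom (3) came from EC_pos alone. The fit was also run on simulated arrays, all drawn from the means and spreads of EC_pos b, c and d. That run could not check whether larval arrays vary like EC_pos, nor the effect of array a. Alternatives were other offsets, a floor, other filters, 2 scalings, eBayes without trend, array weights and leaving out each EC_pos array. In lists a gene was represented by its brightest probe set. Named genes were all members, the 3 genes of each related list with the largest absolute differences in each comparison, the leading marker genes where a result touched them, and the 5 profiles nearest Psc. The calls listed for the trithorax group, and Sfmbt and ey, were also named because they passed the test. Members, lists and tests were chosen with earlier results of these data known.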

Additional observations from a re-analysis of the deposited data

Results flagged for a closer look

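Among 43 probe sets named by rule, 5 had 1 EC_pos array farther from the other 3 than Dixon's 95% limit for 4 values, where about 5% of groups exceed it by chance. All 5 were on array a. RYBP was at 3213.5 on array a and at 112.7 to 200.2 on b, c and d. Trl was at 6208.2 on array a against 336.4 to 489.2, and the hemocyte marker PPO1 at 1516.8 against 202.2 to 234.1. The glial determinant gcm was at 150.6 against 52.7 to 61.8. tna went the other way, at 116.9 on array a against 2702.1 to 3309.6. None of the 6 measured core Polycomb genes exceeded the limit.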

How the results depend on the processing

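Against LB_neg, all 5 tested core genes kept a negative difference under the 10 alternatives run for them, ranging from -2.15 to -1.30 for Psc, -1.45 to -1.23 for E(z), -1.51 to -0.99 for esc, -1.52 to -0.84 for Su(z)12 and -0.61 to -0.33 for Sce. The one call gained was E(z) without array a, and limma's adjusted p ranged from 0.0379 to 0.523 for E(z), 0.0603 to 0.460 for Psc and 0.0554 to 0.709 for Su(z)12. Against LB_pos, Su(z)12 ranged from -0.48 to 0.21. The number of probe sets called against LB_neg was 52 as reported, 161 and 7 with the offset at the 10th and 50th percentile, 9 with a floor, 1339 with array weights, and 0 to 2231 when an EC_pos array was left out (2231 without a, 0 without b, c or d). Against LB_pos it was 3 (1301 at an unadjusted p under 0.05), then 12 and 0 with those offsets (1400 at an unadjusted p under 0.05 for the latter), 6 with no filter, 7 after quantile normalization, 648 with array weights, and 0 to 1359 when an array was left out. Larval probe sets at least 1 log2 unit apart numbered 1848 (1137 higher and 711 lower on LB_pos) and 816 with the offset at the 50th percentile; quantile normalization gave 809 higher and 925 lower, and scaling to a common median 687 higher and 1358 lower. Signs turned for 3 other genes against LB_neg: RYBP (-0.20 as reported, 0.011 with the offset at the 50th percentile, -1.206 to 0.226 when an array was left out), Antp (0.26, -0.10 with array weights, -0.026 to 0.533 when an array was left out) and PPO1 (0.29, -0.28 with array weights, -0.344 to 0.529 when an array was left out). The cause was not tested. Non-overlap counts under other settings were added after seeing the data. No paired analysis was possible because the groups share 1 replicate letter. Genes below the median intensity, such as Pc, were too dim to compare.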
